A study of Mus musculus with 32 samples.

Results

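The genes described here are 8 members of the SUMO pathway, Sumo2, Sumo3, Sae1, Uba2, Pias1, Pias2, Pias3 and Pias4, out of 34223 genes in the table of normalised read counts. They were chosen by symbol after earlier results on the same embryos were known, among them a large difference of Pias3 between the groups. Differences of the 8 genes between the groups are therefore given as a description, also where the call of a tool is stated. The lists of other genes were likewise chosen with earlier results known. The tests of level order, of correlations and of runs within a group concern measures that did not enter the choice of the 8 genes.

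Each library is 1 wild-type mouse embryo at the late 2-cell stage, taken 28 h after in vitro fertilization (IVF). All 32 embryos had received H3.3-GFP mRNA, which encodes histone H3.3 joined to green fluorescent protein, and were kept if they fluoresced. In 16 of them (Val_LNA) the injection also held an LNA oligonucleotide antisense to tRFValCAC, a fragment of the valine transfer RNA that the series title calls enriched in sperm, and in the other 16 (Ctrl_LNA) an LNA oligonucleotide of scramble sequence. LNA stands for locked nucleic acid, a modified nucleotide that strengthens pairing. The comparison asks which transcripts differ when the fragment is inhibited. The labels name no strain, parents or injection day, uninjected embryos and the fragment itself were not analysed here, and p-values measure only the spread between these embryos.

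SUMO proteins are small modifiers related to ubiquitin that are joined to lysines of other proteins, mostly in the nucleus. A single E1 enzyme, the pair of SAE1 and UBA2, activates them, E3 ligases such as the PIAS family direct them to substrates, and SENP proteases remove them. SUMO on chromatin proteins is known to help silence the transcription programme of 2-cell embryos in mouse embryonic stem cells, and PIAS proteins were first described as inhibitors of the STAT transcription factors.

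The modifiers Sumo2 and Sumo3 come from separate genes with closely related coding sequences, shown because reads of near-identical genes can be split between them. Sumo2 lies on the minus strand at chr11:115523102-115536276 and Sumo3 on the plus strand at chr10:77606097-77618331 (GRCm38, GENCODE M21). The longest complete coding sequence annotated for each is 288 bases for Sumo2, printed whole, and 342 for Sumo3, of which the first 300 are printed, with capitals for the longest stretch that both share, 17 bases that start at base 157 of Sumo2 and base 163 of Sumo3.
Sumo2: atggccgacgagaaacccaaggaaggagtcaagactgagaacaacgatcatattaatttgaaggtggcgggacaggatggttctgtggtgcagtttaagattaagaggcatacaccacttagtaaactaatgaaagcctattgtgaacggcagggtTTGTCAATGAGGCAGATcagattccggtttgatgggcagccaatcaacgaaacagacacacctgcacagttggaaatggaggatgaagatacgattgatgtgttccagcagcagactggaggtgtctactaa
Sumo3: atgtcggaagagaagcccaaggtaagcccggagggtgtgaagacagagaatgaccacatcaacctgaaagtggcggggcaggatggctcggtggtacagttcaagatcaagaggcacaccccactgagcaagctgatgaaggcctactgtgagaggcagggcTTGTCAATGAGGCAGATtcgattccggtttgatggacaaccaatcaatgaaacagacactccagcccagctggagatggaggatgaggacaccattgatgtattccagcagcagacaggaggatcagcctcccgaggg
Over 285 aligned bases 236 were identical (82.8%). The shared stretch is shorter than the 50-base words used below to look for ambiguous reads.

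Among the ligases, the longest stretch shared by the coding sequences of Pias3 and Pias4 was also 17 bases long, and it is printed because Pias3 is the member that differed most between the groups.
Pias3 and Pias4: ATGAATGAGAAGAAGCC
It starts at base 1069 of the Pias3 and base 1045 of the Pias4 coding sequence. Pias1 held the first 11 bases of it, from base 1093. Pairs of Pias coding sequences were 61.9% to 67.1% identical over their aligned bases. Of the 4140 different 50-base words in annotated Pias3 transcripts, 0 occurred in a transcript of another gene, and the same held for Pias1 and Sae1. The share was 0.294% for Pias4, 0.418% for Pias2, 2.34% for Uba2, 8.70% for Sumo3 and 19.2% for Sumo2. The words of Sumo2 were shared mainly with gene models such as Gm10241, at a mean of 20.6 normalised counts, and Smt3h2-ps4, at 11.9. Those of Sumo3 were shared mainly with Gm49325, which overlaps 346 exonic bases of Sumo3 on the same strand and had a mean of 93.7. The levels of Sumo2 and Sumo3 are therefore less certain than those of the other members. Pias3 shares 4 exonic bases with Nudt17, a gene on the opposite strand with a mean of 2.58 normalised counts, and the protocol does not mark strand.

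The recovered libraries held 2592925 to 6259870 reads per embryo. Of the 32 embryos 31 had 16687 to 20200 genes above 0, and 1, Ctrl_LNA 48, had 7276, so each result that rests on it is given with and without it. Late 2-cell markers were present in every embryo, with a summed level of 3341 to 20270 normalised counts in Ctrl_LNA and 5510 to 23490 in Val_LNA over 8 genes. The summed level of 7 transcripts stored in the egg, such as Bmp15 and Oosp1, had a median of 8008 in Ctrl_LNA (range 1537 to 20110, with Ctrl_LNA 48 lowest) and 12390 in Val_LNA (range 4560 to 28980). The mean log2 difference of that sum was 0.60 (two-sided permutation test, p = 0.0318) and 0.45 without Ctrl_LNA 48 (p = 0.0641), and that of the late 2-cell sum was 0.55 (p = 0.0388) and 0.48 (p = 0.0667). The permutation p-values of these sums, here and in the runs below, were not adjusted for the number of tests. Gene by gene, limma called 0 of the 7 and 0 of the 8, with or without Ctrl_LNA 48. Of all tested genes it called 2.19% with all embryos. The median log2 fold change over all tested genes was 0.26, and 0.07 without Ctrl_LNA 48. The library numbers form runs of 8. Between Val_LNA 1 to 8 and Ctrl_LNA 31 to 38, the lower runs, the stored egg difference was 0.24 (exact permutation p = 0.447), and between Val_LNA 13 to 20 and Ctrl_LNA 43 to 50, the upper runs, it was 0.96 (exact permutation p = 0.0381) and 0.68 without Ctrl_LNA 48 (exact permutation p = 0.0762). The late 2-cell difference was 0.37 in the lower runs (exact permutation p = 0.352), 0.72 in the upper runs (exact permutation p = 0.0148) and 0.62 there without Ctrl_LNA 48 (exact permutation p = 0.0295). The sum of 10 cumulus cell markers was 177 to 2506 in Ctrl_LNA and 78.5 to 2108 in Val_LNA, and without Amhr2, the highest of them on average, it still reached 2157 and 1723. Foxl2, Fshr and Inhbb were at 0 in all control embryos and at most 5.15 in Val_LNA, while Hsd3b1 was above 0 in 11 embryos of each group, with highest values of 2124 and 1677. Of the 3 cumulus markers abundant enough to test, 1 had a log2 fold change above 0 and 2 below 0, and 0 were called. Tnfaip6 had means of 5.55 and 20.0 and a log2 fold change of 2.03 ± 0.65 (limma, adjusted p = 0.107). Star had means of 15.4 and 10.1 and a log2 fold change of -0.88 ± 0.73 (limma, adjusted p = 0.5725). That of Amhr2 was -0.15 ± 0.35 (limma, adjusted p = 0.860). The part of cumulus cells in the results was not tested. The sum of 6 sperm markers did not exceed 60.6, and that of 7 markers of later lineages, with Gata4 highest, was at most 888.

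In control embryos, Sumo2 was the most abundant member per kilobase of exon and Pias3 the least. Median levels in Ctrl_LNA were 698 normalised counts per kilobase for Sumo2, 222.5 for Sumo3, 194.0 for Pias4, 158 for Uba2, 97.0 for Sae1, 83.1 for Pias1, 64.5 for Pias2 and 58.5 for Pias3. Among the 7 neighbouring pairs in this order, only Sumo2 over Sumo3 passed a paired sign-flip permutation test with Benjamini-Hochberg adjustment, with a mean log2 ratio of 1.89 ± 2.53 (SD, n = 16), Sumo2 being higher in 12 of 16 embryos (adjusted permutation p = 0.0188). Without Ctrl_LNA 48 it was 1.38 ± 1.56 (SD, n = 15, 11 embryos, adjusted permutation p = 0.0278), and Pias1 over Pias2 then passed as well, at 0.52 ± 0.66 (11 of 15 embryos, adjusted permutation p = 0.0278). For the other pairs the order of neighbours did not hold beyond the spread between embryos. Pias4 and Uba2 changed places when the longest transcript replaced the union of exons as the length, with a mean log2 ratio of -0.53 (adjusted permutation p = 0.00315).

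Sumo2 encodes a modifier that can form chains and is joined to many proteins after stress. In Ctrl_LNA its normalised count ran from 189 to 1945 with a median of 1211, and in Val_LNA from 103.5 to 1499 with a median of 997. Val_LNA 14 and Val_LNA 8 lay below all control embryos, and the other 14 lay within the control range. The log2 fold change, the difference of mean log2(normalised count + 1) as Val_LNA minus Ctrl_LNA, was -0.36 ± 0.35 (SE) and -0.34 ± 0.35 without Ctrl_LNA 48.

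Sumo3, whose mature protein differs from that of Sumo2 at only a few residues, ran from 0 in Ctrl_LNA 48, or 202 in the next lowest embryo, to 1768 in Ctrl_LNA, with a median of 814. In Val_LNA it ran from 107 to 2842 with a median of 561, and 13 of 16 embryos were below the control median. A single embryo, Val_LNA 14, lay above all controls, and it was also the lowest of all embryos in Sumo2. With all embryos the log2 fold change was 0.04 ± 0.64, and without Ctrl_LNA 48 -0.57 ± 0.32. It was -1.17 ± 0.40 in the lower runs, and 1.24 ± 1.09 in the upper runs or 0.07 ± 0.44 there without Ctrl_LNA 48. The difference of the effect between runs was 2.41 ± 1.24 (limma interaction, adjusted p = 0.817), or 1.23 ± 0.62 without Ctrl_LNA 48 (adjusted p = 0.831), and did not pass.

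Sae1 and Uba2 encode the subunits that together form the E1 enzyme. Sae1 ran from 25.2 to 838 in Ctrl_LNA without embryo 48, which had 4162, with a median of 252 over all 16, and from 45.7 to 705 in Val_LNA with a median of 405. All 16 Val_LNA embryos lay within the control range, and 13 of them were above the control median. Its log2 fold change was 0.25 ± 0.49, and 0.51 ± 0.42 without Ctrl_LNA 48. On the scale of mean counts the sign depended on that embryo, with a ratio of Val_LNA to Ctrl_LNA of 0.648 with it and 1.10 without it.

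Uba2 had the lowest coefficient of variation of the 8 members in each group. It ran from 575 to 1424 in Ctrl_LNA without embryo 48, where 1 read gave 1.05, and from 660.4 to 1480 in Val_LNA, with medians of 956 over all 16 controls and 1039. The groups overlapped almost fully, with 14 of 16 Val_LNA embryos within the control range and Val_LNA 1 and Val_LNA 18 above it. For Uba2 the log2 fold change was 0.66 ± 0.53, and 0.11 ± 0.14 without Ctrl_LNA 48. The coefficient of variation of Uba2 was 23.5% in Ctrl_LNA without embryo 48 and 24.1% in Val_LNA, and that of its partner Sae1 was 82.2% and 44.6%. For comparison, the median over tested genes with a group mean of at least 100 was 47.8% and 51.6%. Although the proteins act as a pair, no correlation of the transcripts across embryos passed (Spearman rho 0.16 in the 15 controls, adjusted permutation p = 0.700, and 0.12 in the 16 Val_LNA embryos, adjusted permutation p = 0.765). The weakest correlations between members that passed had a rho of 0.646 and 0.715 in size, so a weaker relation could be missed.

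**Figure D1:**
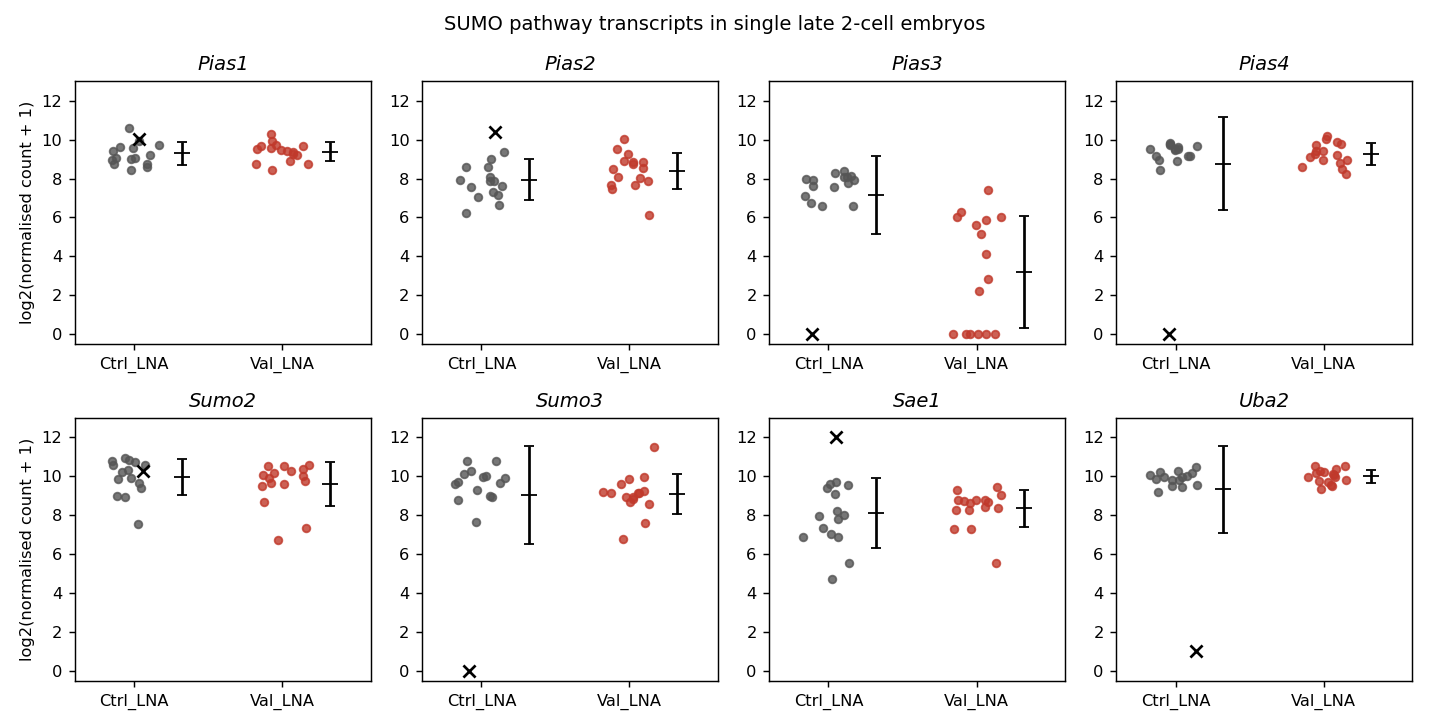
Level of the 8 genes in each embryo, as log2(normalised count + 1), with the mean and SD of each group beside the points and a cross for Ctrl_LNA 48. Pias3 is the member whose Val_LNA embryos sit low, 6 of them at 0, and the cross lies at the bottom in Pias3, Pias4, Sumo3 and Uba2 and at the top in Sae1 and Pias2.

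The PIAS ligases did not differ alike between the groups: Pias3 was low in Val_LNA and the other 3 overlapped. Pias3 encodes PIAS3, a ligase named for its inhibition of STAT3, and lies on the plus strand at chr3:96696384-96706070. In Ctrl_LNA it had a median of 229 normalised counts and ran from 93.7 to 328 in 15 embryos, with 0 in Ctrl_LNA 48. In Val_LNA it had a median of 11.3 and ran from 0 to 169. All 16 Val_LNA embryos were below the control median, and without Ctrl_LNA 48 15 of 16 lay below the lowest control embryo, with Val_LNA 6, at 169, the exception. With Ctrl_LNA 48 at 0 the ranges overlap and 0 of 16 lie below all controls. In whole embryos, fewer cells holding a transcript and less of it per cell cannot be told apart.

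The mean of Pias3 was 202 ± 91.9 in Ctrl_LNA and 33.8 ± 45.9 in Val_LNA (SD, n = 16 each), a ratio of 0.168, which is -2.58 on the log2 scale. The log2 fold change was -3.95 ± 0.83 (SE), and -4.43 ± 0.72 without Ctrl_LNA 48. It is further from 0 than the log2 ratio of means because of the embryos at 0, and it was -2.68 with a pseudocount of 10. Across all 15559 genes tested, limma called 1.31% lower, 0.881% higher and 2.19% either way at an adjusted p under 0.05, and among the 8 members it called 1, Pias3, lower and 0 higher. Without Ctrl_LNA 48 the counts among the members were the same, and the shares of all genes were 2.63% lower and 1.57% higher. Since the members were chosen with this contrast known, nothing is read from these counts.

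The call of Pias3 differed between tools, when runs were taken alone, and with or without Ctrl_LNA 48. DESeq2 called it lower, where 2.17% of all genes were called lower and 1.32% higher. EdgeR called 0 of the 8 members, with 1.08% of all genes lower, and called Pias3 when Ctrl_LNA 48 was left out, with 1.61% of all genes lower. The 8 against 8 embryos of the lower runs gave -3.42 ± 0.97 and no call (0.533% of all genes lower). Those of the upper runs gave -4.47 ± 1.23 and no call (0.212% of all genes lower), and -5.43 ± 0.93 with a call without Ctrl_LNA 48 (0.797% of all genes lower). The difference of the effect between the runs was -1.05 ± 1.63 (limma interaction, adjusted p = 0.894), and -2.01 ± 1.40 without Ctrl_LNA 48 (adjusted p = 0.884).

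The 6 Val_LNA embryos without a Pias3 read spanned the whole range of depth. Their libraries held 2592925 to 6259870 reads, and those of the 10 with at least 1 read held 3128567 to 5479793. A count of 0 allows up to 3 reads of each of these totals. Of the 10, Val_LNA 8 had 3 reads and Val_LNA 13 had 5, and the others had 23 to 195. By runs, the median was 56.5 in Val_LNA 1 to 8, with 2 embryos at 0, and 3.07 in Val_LNA 13 to 20, with 4 at 0, against 219 and 229 in the control runs. The difference between the Val_LNA runs was -1.95 ± 1.28 and did not pass (limma, adjusted p = 0.894).

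**Figure D2:**
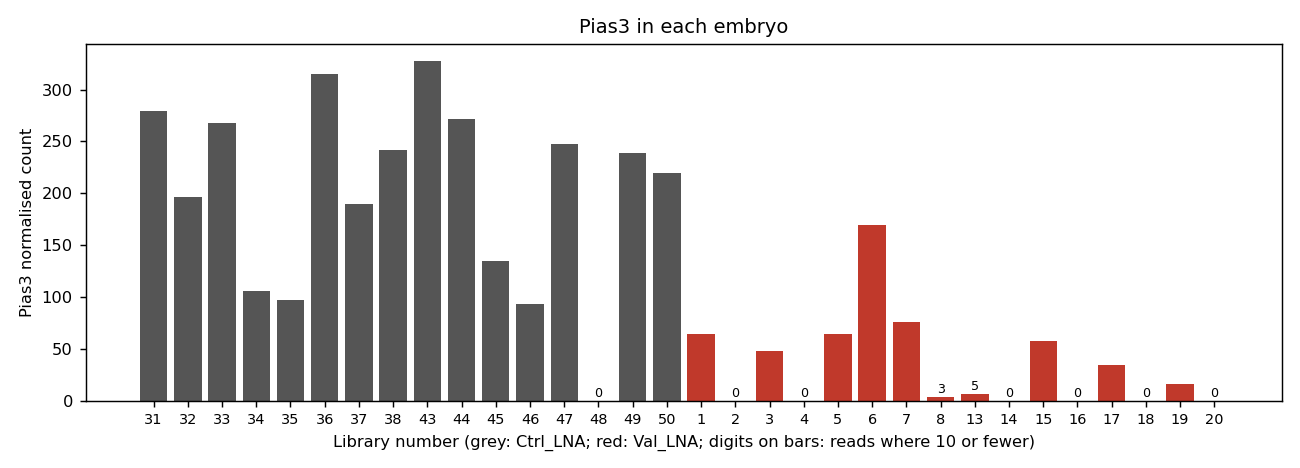
Normalised count of Pias3 in each embryo by library number, grey for Ctrl_LNA and red for Val_LNA, with the number of reads printed where it is 10 or fewer. Of the control embryos only Ctrl_LNA 48 is at 0 and the others stand between 93.7 and 328, and in Val_LNA only embryo 6, at 169, reaches the range of the other 15 controls.

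Pias1, which encodes a ligase for many chromatin proteins, ran from 349.7 to 1522 in Ctrl_LNA with a median of 567.5, and from 344 to 1253 in Val_LNA with a median of 694. In Val_LNA 15 of 16 embryos lay within the control range. A log2 fold change of 0.08 ± 0.21 was found, or 0.13 ± 0.19 without Ctrl_LNA 48.

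Pias2, which encodes the ligase also called PIASx, ran from 74.8 to 647 in Ctrl_LNA without embryo 48, which had 1319, and from 68.1 to 1035 in Val_LNA. The medians were 231.5 over all 16 controls and 361, and 12 of 16 Val_LNA embryos were above the control median. The log2 fold change was 0.42 ± 0.35, and 0.59 ± 0.31 without Ctrl_LNA 48, within a broad overlap of the groups.

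Pias4, which encodes a ligase with roles in DNA repair, ran from 345.0 to 913 in Ctrl_LNA without embryo 48, which had 0, and from 295 to 1170 in Val_LNA. Its medians were 717 over all 16 controls and 602.5, and 3 Val_LNA embryos lay above all controls. With all embryos its log2 fold change was 0.48 ± 0.57 and without Ctrl_LNA 48 -0.10 ± 0.18, so its sign came from that embryo. Over every gene tested, the median difference was itself 0.26 with that embryo and 0.07 without it. Centring each embryo on its median gene moved Pias1 to -0.37, Pias2 to -0.02 and Sumo3 to -0.41, and left Pias3 at -4.40. With that centring the split of all called genes was 61 higher and 300 lower, against 137 and 204 on the deposited scale.

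The rest of the SUMO pathway showed no called gene in limma. Of 26 other genes of the pathway 24 were abundant enough to test, and 0 were called higher or lower, with 4 at an unadjusted p under 0.05 (2292 of all 15559 genes were). Their median log2 fold change was 0.09, against 0.26 over all tested genes, and 0.00 without Ctrl_LNA 48, against 0.07. EdgeR and limma-voom called 0 of the 24, and DESeq2 called 1 higher, Senp3.

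Senp3 encodes a nucleolar protease that removes SUMO2 and SUMO3 and had the smallest p of the list. It ran from 231 to 1153 in Ctrl_LNA with a median of 499, and from 370.2 to 1503 in Val_LNA with a median of 854. The means were 586 ± 256 and 918 ± 294 (SD, n = 16 each), with a log2 fold change of 0.70 ± 0.21 (limma, adjusted p = 0.0800), or 0.68 ± 0.20 without Ctrl_LNA 48 (adjusted p = 0.0523). Centred on the median gene of each embryo, with Ctrl_LNA 48 included, the difference was 0.25 ± 0.42. With the stored egg sum as a covariate it was 0.86 ± 0.21 and passed (adjusted p = 0.0165).

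Limma called no gene of the SENP proteases with all embryos or without Ctrl_LNA 48. Senp1, which removes all SUMO forms, had a log2 fold change of 1.21 ± 0.56 with all embryos and 0.66 ± 0.21 without Ctrl_LNA 48 (limma, adjusted p = 0.303 and 0.0623), and DESeq2 called it without that embryo (0.58 ± 0.18, adjusted p = 0.0405).

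**Figure D3:**
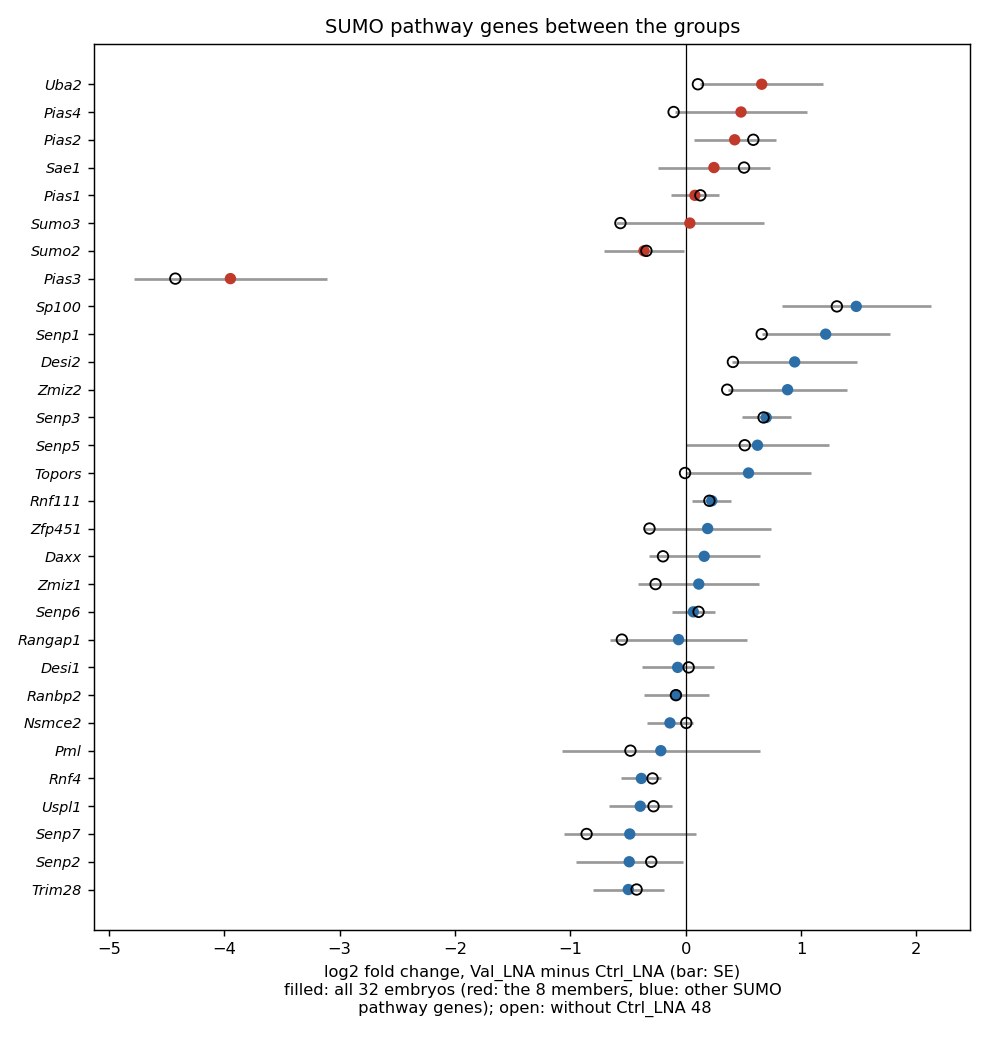
Log2 fold change, Val_LNA minus Ctrl_LNA, of the 8 members (red) and other SUMO pathway genes (blue), with the SE as a bar and the value without Ctrl_LNA 48 as an open circle. Pias3 stands at -3.95 (open circle -4.43), and the other points lie between -0.50 and 1.48, with several moved to the left when Ctrl_LNA 48 is left out.

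Related lists were measured in the same fit, where 2.19% of all 15559 genes were called and 2292 had an unadjusted p under 0.05. The lists are short, and nothing is read from their counts. Of 13 tested genes of the NEDD8 pathway, a sister modifier system with its own E1, 0 were called by limma, 0 had an unadjusted p under 0.05, and edgeR and DESeq2 called 0. Of 18 tested genes of JAK, STAT and SOCS signalling, the pathway that PIAS proteins are named for, limma called 0 with all embryos, with 2 at an unadjusted p under 0.05, and edgeR called 0. Without Ctrl_LNA 48 the kinase gene Jak2 rose, from a control mean of 953 ± 235 over all 16 embryos to 1448 ± 437 (log2 fold change 0.53, adjusted p = 0.0381), and the inhibitor gene Socs3 fell, from 966 ± 787 to 357 ± 232 (-1.44, adjusted p = 0.0134). With all embryos the adjusted p was 0.0506 for Jak2 and 0.400 for Socs3, and DESeq2 called both. EdgeR without Ctrl_LNA 48 called Socs3 (adjusted p = 0.0109) and not Jak2 (adjusted p = 0.0931). With embryos centred on their median gene, Ctrl_LNA 48 included, Jak2 was at 0.14 ± 0.36 (limma, adjusted p = 0.890) and Socs3 at -1.43 ± 0.40 (adjusted p = 0.0432). Stat3, the partner of PIAS3, had a control mean of 322 with Ctrl_LNA 48, which held the highest value of 1373, and 252 without it, against 255 in Val_LNA. Its log2 fold change was -0.23 ± 0.31 (adjusted p = 0.738), and -0.07 ± 0.25 without that embryo (adjusted p = 0.922).

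Among 10 tested regulators of the 2-cell programme, the telomere and replication timing gene Rif1 rose. It ran from 288 to 2390 in Ctrl_LNA with a median of 685 and from 1414 to 2541 in Val_LNA with a median of 1817. The means were 1047 ± 754 and 1875 ± 324, and the log2 fold change was 1.17 ± 0.26 (limma, adjusted p = 0.00840), or 1.23 ± 0.26 without Ctrl_LNA 48 (adjusted p = 0.00272). EdgeR did not call it (0.73, adjusted p = 0.247). The fit with embryos centred on their median gene, Ctrl_LNA 48 included, did not call Rif1 either (0.72, adjusted p = 0.546). Zfp42, which encodes the pluripotency factor REX1, had means of 228 ± 140 and 78.5 ± 109 and a log2 fold change of -3.14 ± 0.91 (adjusted p = 0.0584), and was called lower by limma without Ctrl_LNA 48 (-3.62 ± 0.81, adjusted p = 0.00474). EdgeR and DESeq2 did not call Zfp42 with all embryos (-1.52 and -1.54, adjusted p = 0.452 and 0.235) or without Ctrl_LNA 48 (-1.62 and -1.61, adjusted p = 0.305 and 0.161). DESeq2 with all embryos instead called Dppa2, an activator of the 2-cell programme, lower (-1.05 ± 0.31, adjusted p = 0.0269), which limma did not (-0.79 ± 0.31, adjusted p = 0.207). Zfp42, Dppa2, Jak2, Socs3 and Senp1 are named because of these values.

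Within each group, the levels of several members were correlated across embryos. Of 56 Spearman correlations between pairs of members, 28 in each group with Ctrl_LNA 48 left out, 10 passed in the 15 control embryos and 2 in the 16 Val_LNA embryos after Benjamini-Hochberg adjustment. Correlations of this strength were common among genes in general. Over all pairs of 9437 tested genes with a mean of at least 50, 11.7% were as strong in the controls (rho of at least 0.646 in size) and 4.42% in Val_LNA (at least 0.715), against 35.7% and 7.14% of the 28 member pairs. These shares are a description, and nothing particular to the members is read from them. With Ctrl_LNA 48 included, some control pairs changed. Sae1 no longer passed with Pias1 (rho -0.41, adjusted permutation p = 0.206) or Pias2 (rho -0.44, adjusted permutation p = 0.161). The pairs of Sumo3 with Pias1 and Pias2, given below, did not pass either. Pias1 and Pias2 passed only with that embryo (rho 0.67, adjusted permutation p = 0.0263). Sumo2 and Sae1 rose and fell together in both groups, and Pias2 ran against Sumo2 in both. All values of an embryo share its size factor, and the tests are permutation tests.

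For Sumo2 and Sae1 in the controls Pearson's r was 0.61 (adjusted permutation p = 0.0795) and Spearman's rho 0.81 (adjusted permutation p = 0.00602), with r 0.71 when the 2 embryos farthest from the median of Sumo2 were left out. In Val_LNA r was 0.46 (adjusted permutation p = 0.190), rho 0.71 (adjusted permutation p = 0.0147) and r without 2 embryos 0.56. In the 4 runs of library numbers taken alone, rho was between 0.50 and 0.89. The relation therefore held in ranks in both groups and not in Pearson's r.

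For Pias2 and Sumo2 r was -0.76 and rho -0.69 in the controls (adjusted permutation p = 0.0149 and 0.0316), and r was -0.75 and rho -0.77 in Val_LNA (adjusted permutation p = 0.0149 and 0.00747). Without the 2 embryos farthest from the median of Pias2, r was -0.74 and -0.71. In the 4 runs rho lay between -0.88 and -0.46, below 0 in each. In both groups, embryos with more of this modifier transcript had less of this ligase transcript.

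The paralogs Sumo2 and Sumo3 ran against each other in the controls (r -0.61, adjusted permutation p = 0.0795, rho -0.80, adjusted permutation p = 0.00616, and r -0.78 without 2 embryos). With Ctrl_LNA 48 rho was -0.74 (adjusted permutation p = 0.0104). In Val_LNA rho was 0.09 (adjusted permutation p = 0.812) and r -0.37 (adjusted permutation p = 0.297). In the lower and upper control runs rho was -0.64 and -0.86, and it was 0.26 and 0.29 in those of Val_LNA. The difference between the groups was not tested.

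In the controls Sumo3 rose with Pias1 (rho 0.78) and Pias2 (rho 0.86) and ran against Sae1 (rho -0.81). With Ctrl_LNA 48 the first 2 dropped to 0.50 and 0.53 and did not pass (adjusted permutation p = 0.117 and 0.104), and that with Sae1 was -0.85 (adjusted permutation p = 0.00112). Pias3 correlated with a single member, Pias1, in the controls (r -0.57, adjusted permutation p = 0.0981, rho -0.65, adjusted permutation p = 0.0479, r -0.41 without 2 embryos). Within the lower and upper control runs rho was -0.79 and -0.71. In Val_LNA it was -0.38 (adjusted permutation p = 0.276), with -0.77 in the lower run and 0.46 in the upper.

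**Figure D4:**
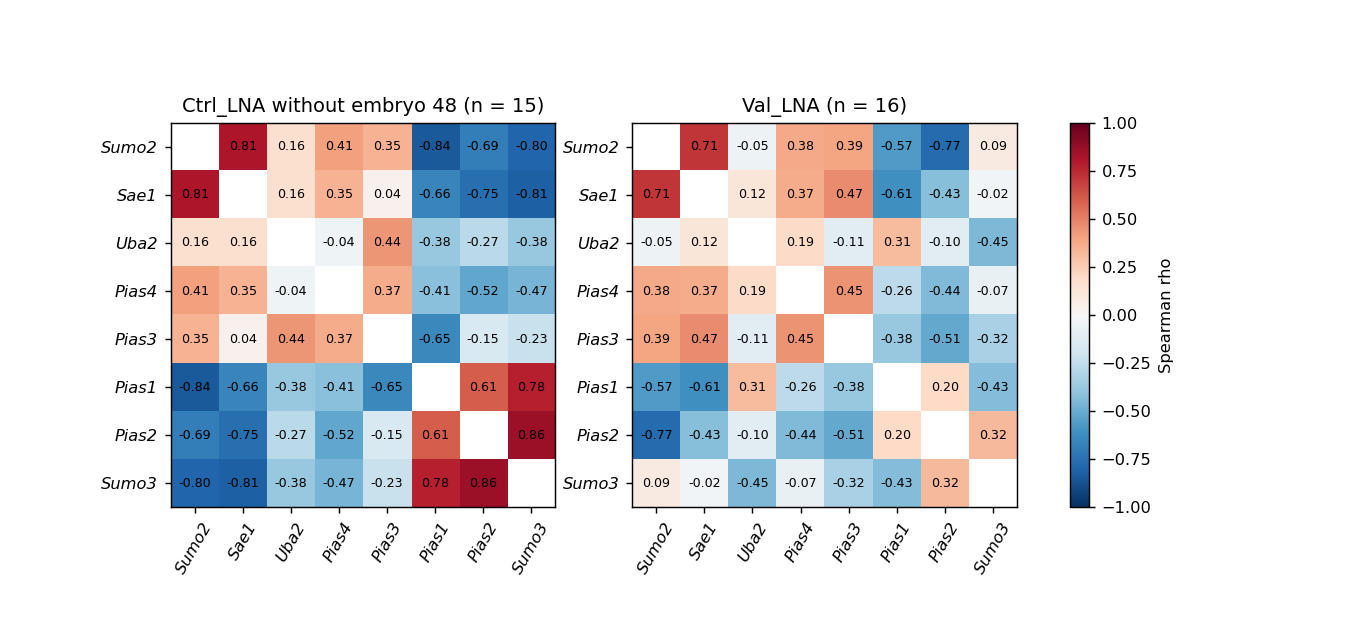
Spearman's rho between each pair of the 8 genes across the 15 Ctrl_LNA embryos other than 48 (left) and the 16 Val_LNA embryos (right), from -1 in blue to 1 in red. Sumo2 and Sae1 form a red block in both panels (0.81 and 0.71), while Pias1 and Sumo3 are red in the controls (0.78) and blue in Val_LNA (-0.43), a difference that was not tested.

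Several members also varied with the level of stored egg transcripts. Over 64 correlations of the members with 4 measures of the embryo, Sumo2 and Sae1 were low and Pias2 was high where the stored egg sum was high, in both groups. For Sumo2 r was -0.65 and rho -0.78 in the controls (adjusted permutation p = 0.0400 and 0.00784), and r -0.79 and rho -0.86 in Val_LNA (adjusted permutation p = 0.00128 for both). Leaving out the 2 embryos with the most extreme sums gave r -0.61 and -0.77. For Sae1 r was -0.69 and rho -0.71 in the controls and r -0.63 and rho -0.86 in Val_LNA (adjusted permutation p between 0.00128 and 0.0400), and for Pias2 rho was 0.71 and 0.72 (adjusted permutation p = 0.0162 and 0.0129). For these 3 genes rho kept its sign in each of the 4 runs.

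The stored egg sum was not the only measure that moved with the members. Of the 8 members, 5 passed against it in the controls and 3 in Val_LNA. Against the late 2-cell marker sum 4 and 2 passed. Against the number of genes detected, which is a sign of library quality, 4 and 0 passed, and against total reads 0 and 0. The shares of all genes that pass against these measures were not computed, so nothing particular to the members is read from these counts. Against the late 2-cell sum rho was -0.70 and -0.74 for Sumo2 in the controls and Val_LNA (adjusted permutation p = 0.0180 and 0.00928) and -0.81 and -0.75 for Sae1 (adjusted permutation p = 0.00653 and 0.00818), below 0 in each of the 4 runs for both genes. Pearson's r was -0.67 and -0.74 for Sumo2 (adjusted permutation p = 0.0314 and 0.0110), with -0.40 and -0.79 when the 2 embryos with the most extreme sums were left out, and -0.70 and -0.42 for Sae1 (adjusted permutation p = 0.0276 and 0.248), with -0.67 and -0.62. In the controls Pias2 (rho 0.72, adjusted permutation p = 0.0162) and Sumo3 (rho 0.78, adjusted permutation p = 0.00784) passed as well, and Pias2 did not with Ctrl_LNA 48 (rho 0.41, adjusted permutation p = 0.269).

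Against genes detected, rho in the controls was 0.84 for Pias1, -0.75 for Sumo2 and 0.65 for both Pias2 and Sumo3 (adjusted permutation p = 0.00432, 0.0112, 0.0353 and 0.0353), with the same sign in both control runs. Pearson's r was 0.76, -0.72, 0.63 and 0.59 (adjusted permutation p = 0.0110, 0.0125, 0.0484 and 0.0626), and 0.77, -0.83, 0.77 and 0.71 without the 2 most extreme embryos. With Ctrl_LNA 48 rho was 0.55 for Pias1 (adjusted permutation p = 0.0921) and 0.36 for Pias2 (adjusted permutation p = 0.369), which did not pass, and -0.71 for Sumo2 and 0.71 for Sumo3 (adjusted permutation p = 0.0125 for both). The part of each measure in the relations between members was not tested.

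Sumo3 followed the stored egg sum closely in the controls (r 0.85, rho 0.91, adjusted permutation p = 0.00128 and 0.00064, r 0.77 without 2 embryos) and not in Val_LNA (r 0.23, rho 0.05, adjusted permutation p = 0.614 and 0.877). That difference between the groups was not tested. Pias1 rose with the sum in the controls (r 0.88, rho 0.80, adjusted permutation p = 0.00128 and 0.00672, r 0.74 without 2 embryos). With Ctrl_LNA 48, which had the lowest sum, rho was 0.53 for Pias1 (adjusted permutation p = 0.107), 0.41 for Pias2 (adjusted permutation p = 0.271) and 0.93 for Sumo3 (adjusted permutation p = 0.00032).

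Pias3 did not pass against the stored egg sum in either group, with r -0.56 and rho -0.51 in Val_LNA (adjusted permutation p = 0.0752 and 0.120) and r -0.49 and rho -0.41 in the controls (adjusted permutation p = 0.171 and 0.270). In all 4 runs rho was below 0, from -0.70 to -0.45. With the sum as a covariate in the fit across all genes, the log2 fold change of Pias3 was -3.91 ± 0.91, against -3.95 ± 0.83 without the covariate. Without Ctrl_LNA 48 the values were -3.73 ± 0.69 with the covariate and -4.43 ± 0.72 without it. The part of the stored egg level in the difference of Pias3 was not tested. With the covariate and without Ctrl_LNA 48, Sae1 had a log2 fold change of 1.06 ± 0.35 and Sumo3 of -0.88 ± 0.30. Neither was called (limma, adjusted p = 0.0811 and 0.0939).

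**Figure D5:**
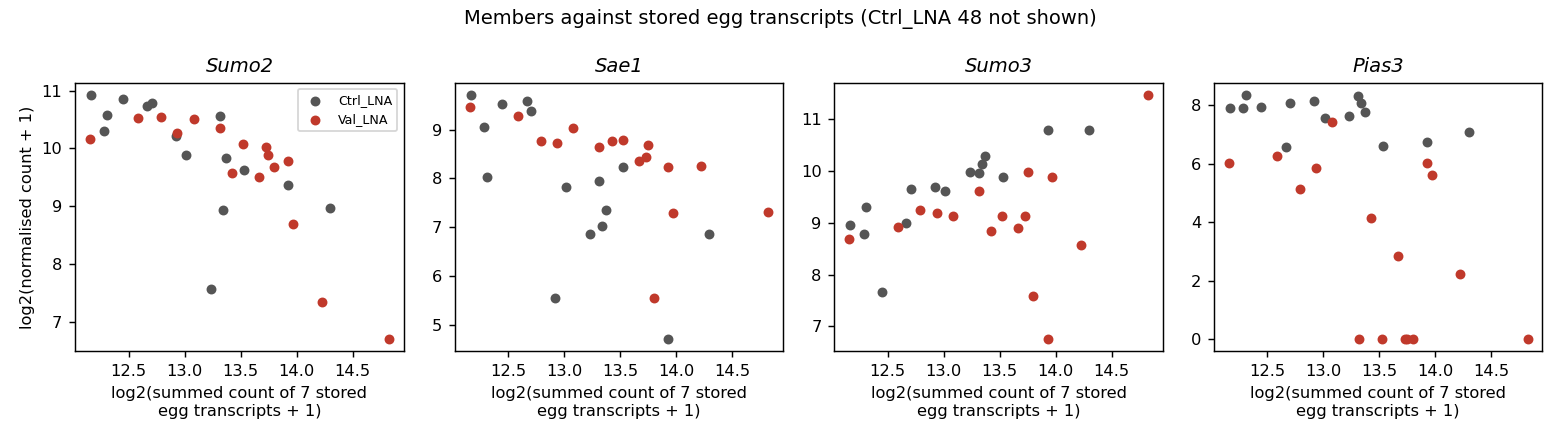
Log2(normalised count + 1) of Sumo2, Sae1, Sumo3 and Pias3 against the log2 summed level of 7 stored egg transcripts, 1 point per embryo, grey for Ctrl_LNA and red for Val_LNA, without Ctrl_LNA 48. Sumo2 and Sae1 decline along the axis in both groups, Sumo3 climbs in the controls (rho 0.91), and Pias3 is lower in most Val_LNA embryos along the whole axis.

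Embryos of the same group but of different runs of library numbers were compared as a check on the members. Limma called 0 of 15559 genes (0%) between the runs in Ctrl_LNA, with or without embryo 48, and in Val_LNA, with unadjusted p under 0.05 for 9.14%, 10.8% and 5.87% of genes. For the difference of the group effect between the runs it again called 0 (0%), with 5.19% at an unadjusted p under 0.05, or 5.91% without Ctrl_LNA 48. Among the members Sae1 differed most between the control runs, with medians of 178 in embryos 31 to 38 and 699 in embryos 43 to 50 and a log2 difference of 1.90 ± 0.72 (adjusted p = 0.535), or 1.48 ± 0.61 without Ctrl_LNA 48 (adjusted p = 0.425). Neither value passed. The labels do not call these runs batches.

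The 5 genes most like Pias3 over the 32 embryos, among 9436 tested genes with a mean of at least 50, were Cdc45 (Spearman rho 0.85), a replication factor, Uba6 (0.84), an E1 enzyme for ubiquitin, Srrm2 (0.83), a splicing factor, Morc2a (0.83), a chromatin silencing factor, and Nfatc2ip (0.83), which encodes a protein with SUMO-like domains. These values carry the difference between the groups, since Cdc45 had means of 1548 and 680 in Ctrl_LNA and Val_LNA, Uba6 186 and 53.3, Srrm2 1049 and 356.5, Morc2a 525 and 163, and Nfatc2ip 160 and 22.4. Within the groups rho was lower. It was 0.63 in the 15 controls and 0.63 in Val_LNA for Cdc45, 0.47 and 0.40 for Uba6, 0.41 and 0.55 for Srrm2, 0.09 and 0.59 for Morc2a, and 0.37 and 0.38 for Nfatc2ip. These are descriptions with no test.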

How the data were processed

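Single-embryo mRNA libraries of 16 Val_LNA and 16 Ctrl_LNA embryos were analysed. Per the labels' protocols, cDNA was made with a template-switching oligo, amplified by 20 PCR cycles and tagmented, with no molecular identifiers and no strand named, so PCR copies count as reads and counting limits cover counting error only. The submitters' processing notes name the build mm10 and the tools STAR, Bowtie2, SAMtools and DESeq2. Their versions, the read length and the counting annotation were not given in the sources used here. Normalised count here means the deposited signal per gene and embryo, which is the authors' count over the DESeq size factor of the embryo, per the file headers. The size factor, a ratio, is deposited in a second file. Their product gave whole reads for 1095136 of 1095136 values (100%), none further than 0.00855 from one, and these recovered reads (2592925 to 6259870 per embryo) entered the count tests. No pair of libraries agreed within sampling noise (lowest chi-square per gene 25.3 over 240 pairs).

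The main test was limma 3.58.1 (R 4.3.3, trend and robust) on log2(normalised count + 1), over 15559 genes with at least 10 in at least 8 embryos, with calls at an adjusted p (Benjamini-Hochberg, over all genes tested) under 0.05. The script was tested on simulated data. The members and lists were chosen with earlier results of these data known, and so was Ctrl_LNA 48 as an embryo to leave out. Named are the 8 members, called genes of the lists and the other SUMO pathway gene with the smallest p, and the 5 tested genes with a mean of at least 50 and the highest Spearman rho with Pias3. Others were named after their values were seen, and some genes that the rule names are not reported here.

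The recovered reads were also tested with edgeR 4.0.16, DESeq2 1.42.0 and limma-voom. Further alternatives were other pseudocounts, filters and scalings, array weights, the lower or upper runs only, and fits without each embryo in turn. The fit with the stored egg sum as a covariate, edgeR, DESeq2 and the upper runs without Ctrl_LNA 48, and correlations with that embryo were added after seeing the data. Permutation tests were two-sided with 100000 resamples, or exact for the runs of 8 (scipy 1.17.1). Those of level ratios and correlations had Benjamini-Hochberg adjustment within each family. Those of the marker sums between the groups were not adjusted. Coordinates, coding sequences and exon lengths are from GENCODE M21 (GRCm38), which matched 34179 of 34223 identifiers (99.87%). Levels per kilobase divide by the union of exons. The listed symbols Dux and Smcp were not found among the gene symbols and were not analysed under those names. Duxf3 was among the 10 tested regulators of the 2-cell programme and was not called (limma, adjusted p = 0.345).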

Additional observations from a re-analysis of the deposited data

How the results depend on the processing

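No paired analysis was possible because the library numbers of the groups are all different. Among the 8 members the count of 1 called lower became 0 in edgeR, in the lower runs alone and in the upper runs alone, and was 1 in the other 14 alternatives and in each of the 32 fits that left out an embryo. EdgeR and the upper runs alone each called Pias3 when Ctrl_LNA 48 was left out. Each run has 8 embryos per group in place of 16. The cause of the lost calls was not tested. The log2 fold change of Pias3 lay between -5.43 and -2.58 over the alternatives and between -4.43 and -3.73 over the fits that left out 1 embryo, all of which called it.

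Of the other SUMO pathway genes, 1 was called higher with DESeq2, array weights, DESeq2 without Ctrl_LNA 48 and the stored egg covariate with or without it, and 0 to 1 when single embryos were left out. Of the JAK, STAT and SOCS genes, 1 was called lower with DESeq2, median centring, array weights, and edgeR, DESeq2 or the upper runs without Ctrl_LNA 48, and 1 higher with DESeq2 (with or without Ctrl_LNA 48), the filter of 50 and array weights, with 0 to 1 in each direction when single embryos were left out. Of the 2-cell regulators, 1 was called lower with DESeq2 (Dppa2) and, as Zfp42, with a pseudocount of 10, the filter of 50, median centring, array weights and the stored egg covariate without Ctrl_LNA 48 (0 to 1 over single embryos left out). The 1 called higher became 0 in edgeR and DESeq2 without Ctrl_LNA 48, edgeR with it, median centring, and the upper runs with or without it. For these the cause was not tested, and median centring was run only with Ctrl_LNA 48 included. The NEDD8 counts stayed at 0.

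The level ratio of Pias4 over Uba2 reversed to -0.53 with the longest transcript as length, and that of Pias1 over Pias2 passed at 0.52 without Ctrl_LNA 48. In the 6 Val_LNA embryos without a Pias3 read, up to 3 reads are allowed. That is at most 5.15 normalised counts (Val_LNA 2), against 93.7 in the lowest control other than Ctrl_LNA 48. The share of ambiguous reads limits Sumo2 and Sumo3.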
